A study of Mus musculus with 30 samples.

Results

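The 3 wild-type (WT) spleen libraries of a mouse RNA-seq series were compared with its 12 WT libraries of brain, kidney, liver and muscle. These 15 libraries were chosen by tissue and genotype label alone, out of 30 in the series, and all genes were considered. The series asks how losing 1 copy of Ctcf, which encodes a DNA-binding zinc-finger protein of chromatin looping, acts in 5 tissues. Its other 15 libraries come from Ctcf heterozygous mice and enter only a repeat of the comparison, an alternative fit of all 30 libraries and a check of Ctcf levels. All libraries used here came from adult C57BL/6 mice labelled as controls for Ctcf, with no treatment named, and there were 3 libraries each of spleen, brain, kidney, liver and quadriceps muscle. The design text gives 3 WT mice for the 5 tissues, but the labels do not tie library numbers to mice, so p-values measure the spread between these libraries. Each value is a level over all cells of a library, in which fewer cells of a type and less RNA per cell cannot be told apart. The sample titles name the tissue and do not say whether it was used whole.

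The spleen filters blood and mounts immune responses to what the blood carries. Its white pulp holds B cell follicles and T cell zones, and its red pulp holds macrophages that clear old red cells and recycle their iron. In mice the red pulp also makes red cells, platelets and granulocytes throughout life, and a scaffold of fibroblastic and endothelial cells organises both compartments.

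The spleen libraries held 77944266, 85705073 and 89046996 counts, and the 15 libraries together ranged from 49819907 to 103746605. Levels are given in CPM, a gene's counts relative to the size of its library, with libraries scaled by the trimmed mean of M-values (TMM). A count of 3, taken as the floor of detection, equals 0.0290, 0.0237 and 0.0211 CPM in spleen libraries 1, 2 and 3, and covers counting error only. The tissue label was checked against 10 leukocyte and spleen markers, of which 9 were enriched in spleen. Madcam1, the adhesion molecule of marginal sinus lining cells, was the exception at 0.174, 0.0554 and 0.106 CPM, within the 12 other libraries' range. Markers of the other tissues were low in spleen: the neuronal gene Snap25 and the kidney genes Kap and Umod had no count in any spleen library. Albumin (Alb) stood at 20.2, 15.7 and 16.8 CPM against 199200.0, 236240.0 and 171590.0 CPM in liver.

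A gene was called enriched when spleen was above each of the 4 other tissues at an adjusted p under 0.05, and depleted when it was below each of them. Of 22933 genes tested, 4524 (19.7%) were enriched and 3583 (15.6%) were depleted. All 3 spleen libraries lay above all 12 others for 4517 genes (19.7%) and below all 12 for 3405 genes (14.8%). The smallest difference of a gene is its log2 difference from the nearest of the 4 tissues. Where all libraries of a tissue held 3 counts or fewer, that tissue was set to 3 counts and the fold is given as a lower bound. On that scale 1958 enriched genes (8.54%) and 1586 depleted genes (6.92%) differed at least 4-fold from every other tissue, and by fitted differences alone 2148 (9.37%) and 1957 (8.53%) did. Liver was the nearest tissue for 1512 of the enriched genes, ahead of kidney with 1136, brain with 1097 and muscle with 779. In the 15 Ctcf heterozygous libraries, which share no sample with these, 4185 genes were enriched in both, which is 92.5% of the WT calls and 90.3% of the heterozygous calls. For depleted genes the overlap was 2954, or 82.4% and 89.3%. Scaling by total counts alone raised spleen against liver by a median log2 of 1.20 and against muscle by 1.32, and called 5958 enriched and 2228 depleted genes, so list counts that differ by more than 1.5 times under it are given with both scalings.

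Genes of red cell precursors were the commonest group among those that stood furthest above every other tissue. Of the 25 genes with the largest fitted smallest difference and at least 5 CPM in spleen, 9 belong to the erythroid list, 2 to the neutrophil list, 1 to the B cell surface list and 4 to the list of pancreatic enzymes. Hemgn, a nuclear protein of blood precursors (chr4:46393989-46413506, - strand, GRCm38), had 289, 339 and 70.9 CPM in the spleen libraries and 0 to 0.368 CPM (median 0.0125) in the 12 others. Its smallest difference was 10.79 (SE 0.85, against kidney, adjusted p 2.47e-07). The blood group genes Rhag, Rhd and Kel were among the 25. Rhag had 121, 140.2 and 35.2 CPM in spleen, and Rhd had 288, 223 and 48.4 CPM. Kel had 184, 192 and 45.7 CPM, and none of the 3 exceeded 0.344 CPM in any other library. Also among them were the transcription factors Gata1 (73.03, 60.9 and 17.3 CPM) and Gfi1b (35.1, 24.5 and 9.57 CPM), which drive red cell and platelet formation. In each of these genes spleen library 3 was the lowest of the 3 and still lay above all 12 other libraries.

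B cell genes were high in all 3 spleen libraries and close to each other. All 20 of 20 tested genes of the B cell receptor and surface were enriched, with a median smallest difference of 6.99 against 0.00 over all genes tested. Cd79a, a signalling chain of the B cell receptor (chr7:24897381-24902197, + strand), had 966, 686 and 821 CPM in spleen and 0.169 to 4.98 CPM (median 0.791) in the others. The groups did not overlap, and the smallest difference was 7.69 (SE 0.33, against liver, adjusted p 7.66e-10). Its partner chain Cd79b had 737, 459 and 700.1 CPM. Cr2, the complement receptor that is highest on marginal zone and follicular B cells, varied more, with 160.4, 261 and 425 CPM, and its highest value elsewhere was 1.79 CPM. Tnfrsf13c, the receptor for the survival factor BAFF, had 114, 93.7 and 123 CPM and was also among the 25 genes of largest difference.

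The transcription factors of B cells followed. Of 12, 11 were enriched, including Pax5, which fixes B cell identity (286, 244 and 312 CPM), Spib (252, 269 and 334 CPM) and Pou2af1, a co-activator at immunoglobulin promoters (197, 185 and 267 CPM). Bcl6, the factor of germinal centre B cells, was not called: spleen had 40.05, 52.4 and 54.6 CPM and muscle 80.5, 86.3 and 57.7 CPM. Of 6 genes of B cell development and diversification 3 were enriched, beside 19.7% of all genes. Rag1, a recombinase of receptor gene assembly, was enriched at 0.579, 0.846 and 1.31 CPM, and Rag2 was too low to test at 0.0290, 0.0158 and 0.0423 CPM.

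Immunoglobulin genes were enriched almost without exception. All 11 of 11 tested constant region genes were enriched, as were 100 of 101 heavy chain, 105 of 105 kappa and 3 of 3 lambda variable segments. The filter on low counts left 84 heavy and 55 kappa segments untested. Segments near 0 elsewhere could pass it only through their spleen counts, so these near-complete shares follow in part from the filter. Ighm, the constant region of IgM, had 2478, 2332 and 3144 CPM in spleen, and Ighd, that of IgD, had 599.7, 448 and 644 CPM. Igha, the IgA constant region, was 752, 246 and 161 CPM and was highest in library 1. Jchain, which joins IgM and IgA into polymers, had 242, 225 and 334 CPM and at most 10.8 CPM elsewhere. Summed over segments, heavy V genes took 452, 566 and 762 CPM and kappa V genes 1100.4, 947 and 1424 CPM in spleen, against 0.0199 to 10.5 and 0.118 to 18.5 CPM in the 12 others. Near-identical segments lose reads that map to several of them, so single segment values are uncertain. Of 10 plasma cell genes 6 were enriched, beside 19.7% of all genes. The secretory factor Xbp1 (72.8, 68.5 and 77.8 CPM) and the surface proteoglycan Sdc1 (8.86, 8.88 and 11.3 CPM) were not, and liver was higher in both, at 357 ± 48.3 and 447 ± 69.8 CPM (SD, n = 3).

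T cell and natural killer (NK) cell genes gave a similar picture. Of 27 T cell genes, 26 were enriched, with a median smallest difference of 5.86. Cd3e, a signalling chain of the T cell receptor, had 91.9, 69.6 and 74.3 CPM in spleen and 0.0340 to 2.03 CPM (median 0.634) in the others, which did not overlap. Cd8a, which marks cytotoxic T cells, had 96.2, 95.5 and 108 CPM, and Lck, the kinase that starts receptor signalling, 209.8, 187 and 173 CPM. Bcl11b, a factor of T cell commitment, was the 1 member not called, with 40.1, 54.3 and 51.9 CPM in spleen and 59.9, 60.3 and 56.1 CPM in brain, where cortical neurons express it. Variable segments of the T cell receptor were enriched in 58 of 59 alpha, 21 of 21 beta and 5 of 5 gamma and delta genes, at low levels summing to 26.9, 26.3 and 31.00 CPM for alpha. With DESeq2 the alpha count was 41. The filter on low counts left 69 alpha and 14 beta segments untested. Here too, segments near 0 elsewhere could pass it only through spleen, so the shares follow in part from the filter. Of 19 NK and cytotoxic genes 17 were enriched, including the granzyme Gzma (48.1, 82.96 and 35.04 CPM) and the chemokine Ccl5 (69.8, 57.7 and 44.1 CPM), and all 11 of 11 Ly49 receptor genes, through which mouse NK cells read MHC class I.

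Antigen presentation genes were enriched throughout. All 11 of 11 MHC class II genes were called. Cd74, the invariant chain that guides class II molecules, had 4056, 2587 and 3438 CPM in spleen, with 175, 242 and 209 CPM in kidney, the nearest tissue. H2-Aa, which encodes a class II alpha chain (chr17:34282744-34287827, - strand), had 1372, 866 and 1235 CPM and a smallest difference of 3.52 (SE 0.31, adjusted p 2.59e-07). Per kilobase of exon, the mean spleen level of Cd74 was 2383 CPM and that of the kappa constant region Igkc 2998 CPM. Of 13 dendritic cell genes 10 were enriched, including the integrin Itgax (33.3, 34.9 and 44.4 CPM). Siglech, a marker of plasmacytoid dendritic cells, was not called, with 7.75, 9.04 and 16.1 CPM in spleen and 12.4, 11.5 and 15.1 CPM in brain, where microglia express it.

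**Figure D1:**
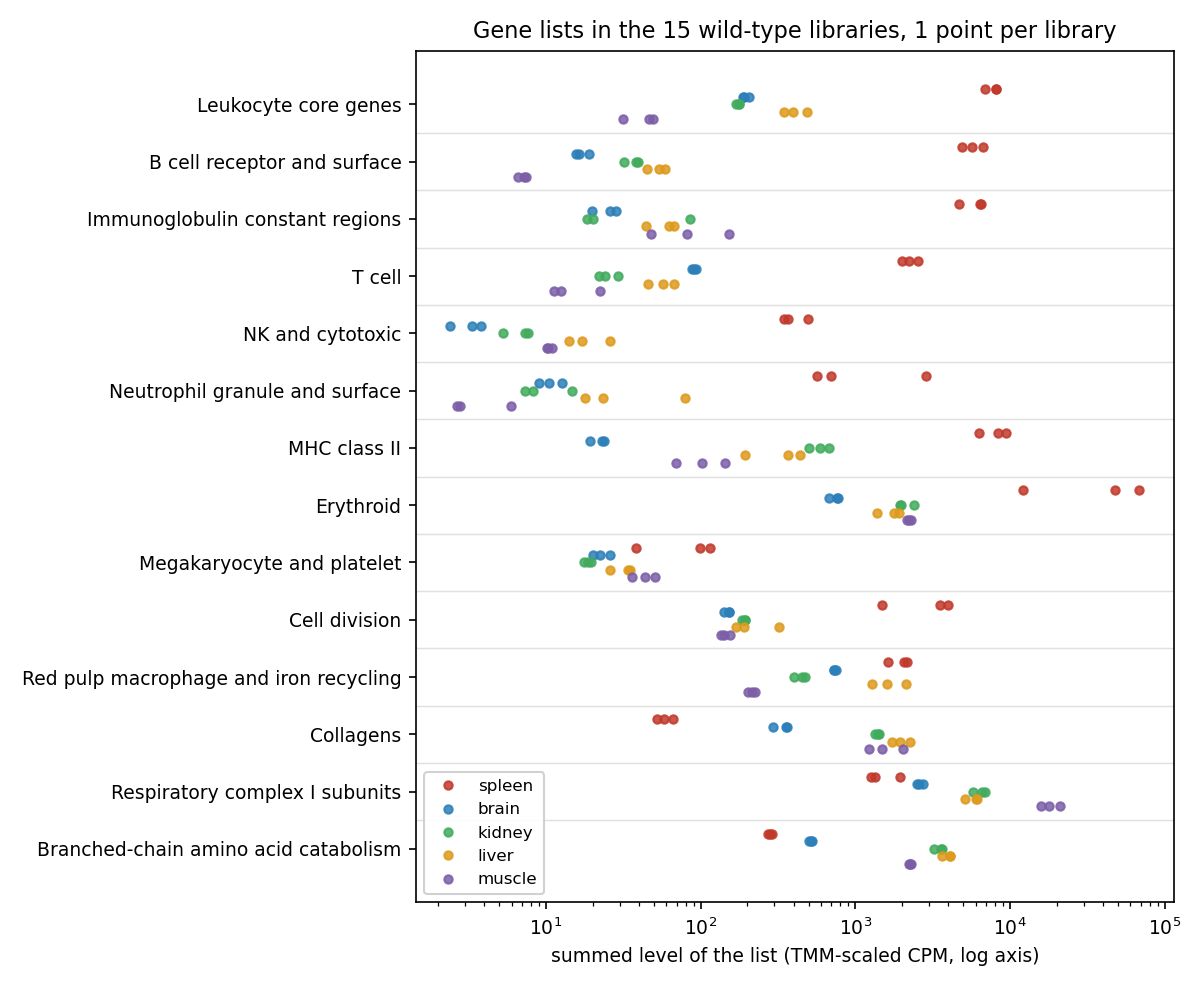
Summed TMM-scaled CPM of 14 gene lists (log axis), with 1 point for each of the 15 wild-type libraries and colours for the tissues. Spleen points lie to the right of all others for the lymphoid, MHC class II, erythroid and cell division lists, overlap liver for the macrophage list and muscle for the megakaryocyte list, and lie to the left for collagens, respiratory complex I and branched-chain amino acid breakdown.

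Macrophage genes set spleen apart from brain, kidney and muscle but much less from liver. Of 21 genes of red pulp macrophages and iron recycling, 6 were enriched (14 with total-count scaling), beside 19.7% of all genes with TMM scaling. By single contrasts 20 were above kidney, 20 above muscle, 19 above brain and 8 above liver, beside 36.3%, 38.0%, 37.0% and 37.6% of all genes. With TMM scaling 4 were below liver, beside 35.2% of all genes. They included Cd5l (mean 59.2 CPM in spleen and 265 CPM in liver), Siglec1 (5.82 and 21.4 CPM) and Timd4 (6.96 and 18.4 CPM). Spic, the factor that specifies red pulp macrophages, had 54.1, 40.4 and 42.6 CPM in spleen, 3.40, 6.56 and 3.27 CPM in liver and at most 0.160 CPM in the other 9 libraries. Hmox1, which opens the haem ring, had 300.3, 302 and 240.0 CPM, and Vcam1, an adhesion molecule of these macrophages, 110.4, 224 and 162 CPM, both enriched. Slc40a1, the iron exporter ferroportin, was lower in spleen (154, 182 and 208 CPM) than in liver (308, 321 and 232 CPM), with a log2 difference of -0.66 (SE 0.19, adjusted p 0.00568), a direction that turned with total-count scaling, where it was above every tissue by at least 0.53. Blvrb, a biliverdin reductase that red cells also hold, had 346, 269 and 80.00 CPM in the spleen libraries and was not called. It was called without spleen library 3 (smallest difference 0.84) and with total-count scaling (1.57).

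Granulocyte genes were high but uneven. Of 17 neutrophil genes 16 were enriched. S100a9, an abundant calcium-binding protein of neutrophils, had 823, 131 and 184 CPM in spleen and 0.134 to 7.43 CPM (median 1.09) in the others. Of the granule proteins made in precursors, Ngp had 332, 80.9 and 61.3 CPM and Camp had 134, 24.7 and 22.8 CPM. Library 1 was the highest of the 3 in all 17 neutrophil genes. Lcn2, which many tissues induce in inflammation, was not called, with 121, 22.2 and 23.02 CPM in spleen and up to 51.96 CPM in liver, and was called without liver library 1 (smallest difference 2.59) and with total-count scaling (2.36). Among mast cell, basophil and eosinophil genes 9 of 10 were enriched, including Prg2, the major basic protein of eosinophils (55.1, 19.2 and 20.4 CPM), and the eotaxin receptor Ccr3 (25.7, 23.6 and 29.2 CPM).

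Red cell genes were abundant in spleen and unequal between its libraries. The 4 adult globin genes took 7.79%, 5.36% and 1.55% of all counts in spleen libraries 1, 2 and 3, and at most 0.230% in any other library. Of 29 erythroid genes 25 were enriched, with a median smallest difference of 4.46. Hbb-bs, a beta globin gene (chr7:103826534-103828096, - strand), had 27341, 17761 and 4751 CPM in spleen, and its smallest difference was 4.43 (SE 0.47, against kidney, adjusted p 3.44e-06). Slc4a1, the anion exchanger of the red cell membrane, had 1952, 2421 and 461 CPM. The not called members were Fech, the last enzyme of haem synthesis (421, 489 and 109 CPM), the transferrin receptor Tfrc (404, 469 and 138 CPM), and the membrane skeleton genes Sptb and Ank1. Muscle was higher than spleen in Ank1, at 1142 ± 112 CPM (SD, n = 3), and close in Sptb, at 257 ± 49.3 CPM. Without spleen library 3, Fech, Tfrc and Sptb were called, with smallest differences of 1.02, 0.96 and 0.51. Of 14 megakaryocyte genes 9 were enriched, such as Ppbp, a platelet chemokine (20.5, 19.1 and 4.93 CPM).

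Dividing-cell genes were all above the other adult tissues. All 32 of 32 cell division genes were enriched, with a median smallest difference of 3.49. Mki67, the proliferation antigen, had 600.4, 727 and 172 CPM in spleen and 0.394 to 16.7 CPM (median 2.77) in the others. Top2a, which untangles chromosomes, had 202, 276 and 87.4 CPM, and E2f2, a cell cycle transcription factor, 286, 286 and 96.5 CPM. The list summed to 3554, 3964 and 1483 CPM in spleen and to 135 to 323 CPM elsewhere, and library 3 was the lowest spleen library in all 32 genes. Of 11 blood progenitor genes, 5 were enriched and 4 depleted, beside 19.7% and 15.6% of all genes. The depleted ones were Cd34, Meis1, Hlf and Mecom, with mean spleen levels of 0.729, 1.33, 0.390 and 0.0603 CPM. Myb (19.8, 26.7 and 30.4 CPM) and Runx1 (33.8, 40.8 and 40.96 CPM), transcription factors of early blood cells, were enriched, and Kit, the stem cell factor receptor, was not called at 8.68, 15.2 and 15.4 CPM, with brain at 33.5 ± 1.84 CPM (SD, n = 3). Replication-dependent histone genes, whose messages mostly lack a poly(A) tail, were enriched in 14 of 45 tested genes, beside 19.7% of all genes. The count of enriched histone genes was 19 with total-count scaling, 11 without spleen library 1 and 22 without library 3.

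The 3 spleen libraries were closer to each other in B and T cell surface genes than in neutrophil, erythroid and dividing-cell genes. B cell surface genes summed to 5698, 4894 and 6669 CPM in libraries 1, 2 and 3, and T cell genes to 2534, 2010.3 and 2238 CPM. Erythroid genes summed to 68476, 47481 and 12219 CPM, and library 3 was the lowest in all 29 of them. Neutrophil genes summed to 2843, 567 and 699 CPM. Over all tested genes with a spleen count the median coefficient of variation among the 3 libraries was 23.8%, against 63.5% for erythroid genes, 79.0% for neutrophil genes, 46.0% for cell division genes and 15.6% for T cell genes. It was 17.3% for B cell surface genes, 20.7% for red pulp macrophage genes and 20.8% for dendritic cell genes. Other lymphocyte genes varied more, with 32.2% for NK and cytotoxic genes, 35.1% for heavy V segments and 41.7% for lambda V segments. The common biological coefficient of variation of the fit was 0.232. The erythroid calls numbered 25, 25 and 28 of 29 when spleen library 1, 2 or 3 was left out.

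**Figure D2:**
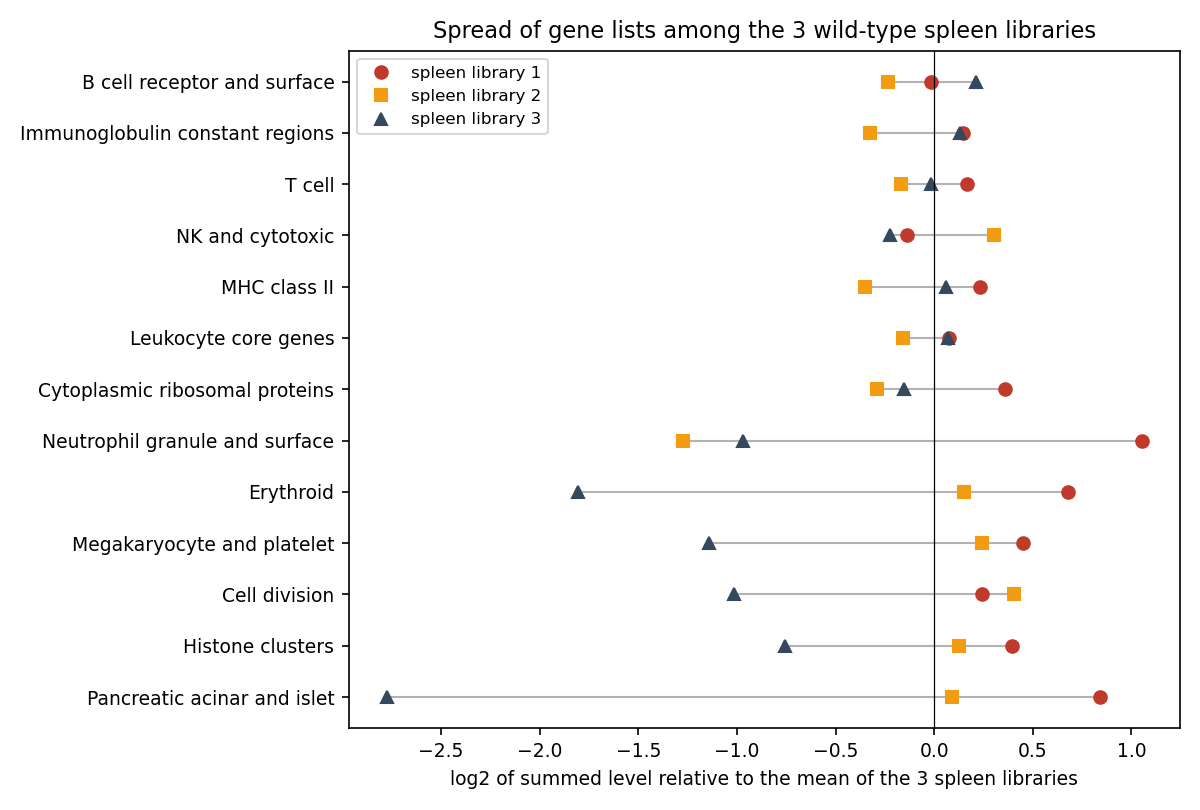
Log2 of the summed CPM of 13 gene lists in each of the 3 wild-type spleen libraries, relative to their mean. The B cell surface, T cell and leukocyte core lists lie close to 0 in all 3 libraries, whereas library 3 is low for the erythroid, megakaryocyte, cell division, histone and pancreatic lists and library 1 is high for the neutrophil list.

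Pancreatic enzyme genes were also called. Of 17 tested acinar and islet genes 13 were enriched, and 4 stood among the 25 genes of largest difference. Ctrb1, a chymotrypsinogen, had 43.6, 24.1 and 1.81 CPM in spleen and at most 0.176 CPM elsewhere, and Cpa1, a carboxypeptidase, 16.96, 9.37 and 0.712 CPM. Of the hormone genes, Ins2 was at 0.415, 0.0158 and 0 CPM and Gcg at 0.183, 0.166 and 0.0846 CPM, and neither was called. Gcg was called without spleen library 3, with limma-voom and with total-count scaling. The tail of the pancreas lies against the spleen, and the part of pancreatic tissue in these values was not tested. The pancreatic list summed to 253, 151 and 20.7 CPM in spleen and 0.581 to 123 CPM in the others, and library 1 was the highest and library 3 the lowest in all 17 genes. Libraries 1 and 2 were also the higher ones in erythroid and cell division genes. None of 12 hepatocyte, 9 adipocyte or 6 mesothelium genes was enriched, and 3 of the mesothelium genes were depleted.

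**Figure D3:**
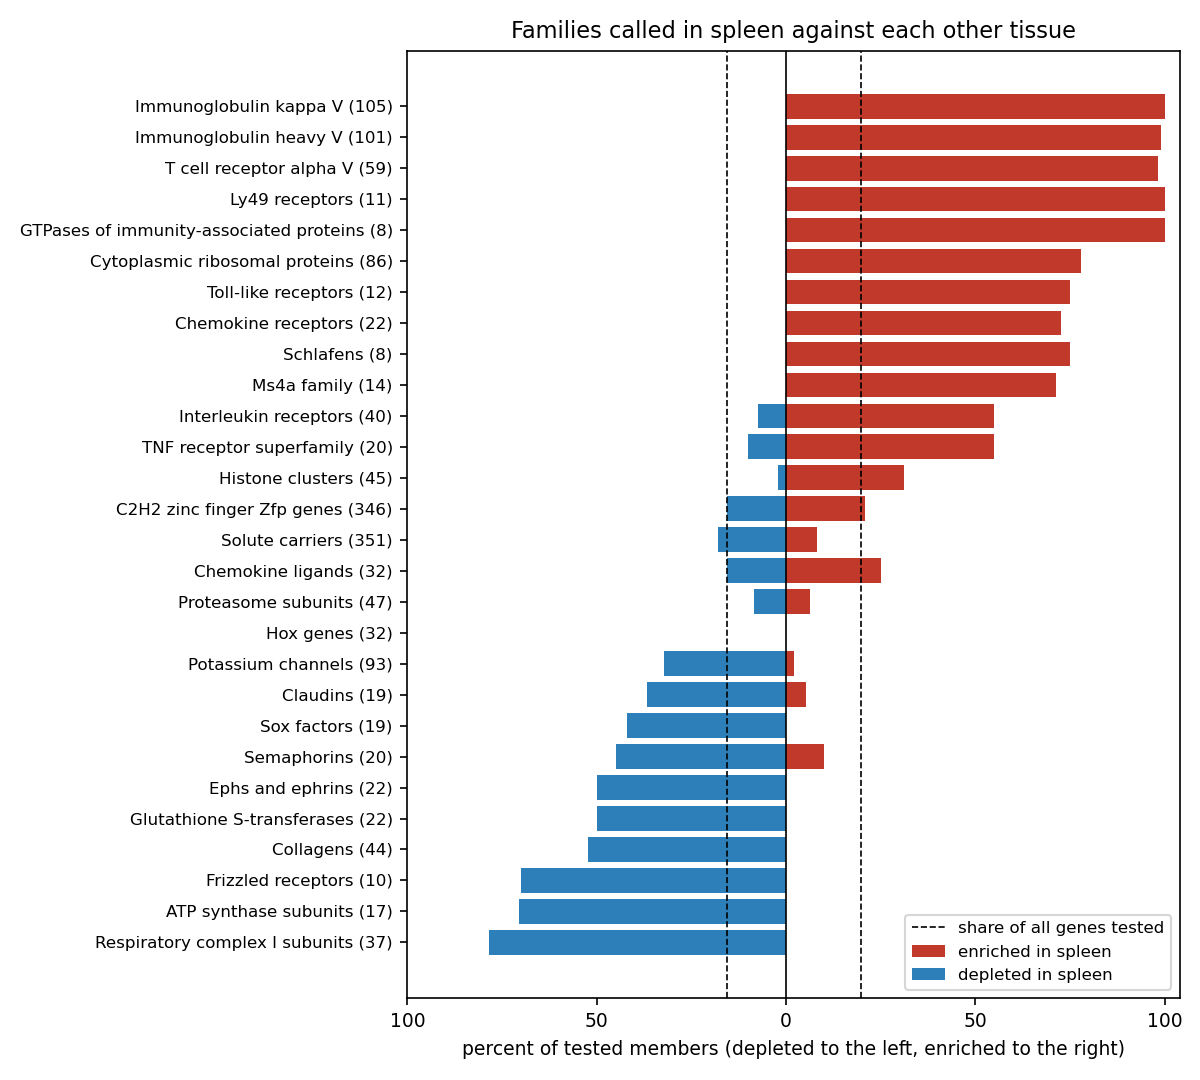
Percent of tested members of 28 of the 48 gene families enriched (right) or depleted (left) in wild-type spleen against each of the 4 other tissues, with the number tested in parentheses; the dashed lines mark the shares of all genes tested, 19.7% enriched and 15.6% depleted. Antigen receptor segments, Ly49 receptors and GTPases of immunity-associated proteins lie at or near 100% enriched, and of the families drawn, respiratory complex I, ATP synthase and Frizzled receptors lie furthest to the depleted side. Respiratory complex III, with 8 of 9 depleted, is not drawn.

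Families of immune receptors and signalling genes were enriched in larger shares than the 19.7% of all genes. Of 22 chemokine receptors 16 were enriched, among them Ccr7 (155, 109.5 and 139 CPM), Cxcr5 (128, 108 and 147 CPM) and Cxcr4 (137, 134 and 102 CPM), which guide T cells, follicular B cells and many blood cells. Of their ligands 8 of 32 were enriched and 5 depleted, close to the 19.7% and 15.6% of all genes. The depleted Cxcl12, the ligand of Cxcr4, had 1.89, 1.12 and 1.01 CPM in spleen and 21.6 to 554 CPM (median 135) elsewhere, with a smallest difference of -4.39 (SE 0.22, against brain, adjusted p 5.99e-10). All 8 of 8 Gimap genes, small GTPases of lymphocyte survival, were enriched, including Gimap3 (401, 365 and 477 CPM). Toll-like receptors were enriched in 9 of 12, Ms4a genes in 10 of 14, Schlafens in 6 of 8, interleukin receptors in 22 of 40 and TNF receptors in 11 of 20 tested members, with 3 and 2 depleted in the last pair. The Schlafen gene Slfn14, expressed in red cell and platelet precursors, had 68.1, 117 and 24.8 CPM and was among the 25 genes of largest difference, while Slfn2, a regulator of lymphocyte quiescence, had 296, 195 and 212 CPM.

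Ribosomal protein genes were enriched by small amounts. Of 86 cytoplasmic ribosomal protein genes 67 were enriched and none was depleted (81 enriched with total-count scaling), with a median smallest difference of 0.87. Their sum was 87082, 55488 and 60971 CPM in spleen and 11199 to 42334 CPM elsewhere, with muscle nearest. Library 1 was the highest spleen library in 85 of the 86 genes, and without it 59 were enriched. Few proteasome genes were called against all 4 tissues, with 3 enriched and 4 depleted of 47 (10 and 0 with total-count scaling, 3 and 7 without spleen library 1, 4 and 2 without library 2, 3 and 1 without library 3, and 3 and 2 without either brain library 2 or kidney library 2). By single contrasts with TMM scaling, 37 were below liver and 35 below muscle, beside 35.2% and 37.2% of all genes, and 4 and 11 were above. Against kidney 15 were below and 9 above, and against brain 6 were below and 18 above. The 3 enriched ones were Psmb8 (229, 147 and 163 CPM) and Psmb9 (128, 100.3 and 106 CPM), catalytic subunits of the immunoproteasome, and the activator Psme3 (224, 286 and 132 CPM).

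Collagen genes were low in the spleen libraries, and the part of sample preparation in these values was not tested. Of 44 collagen genes 23 were depleted and none was enriched, with a median smallest difference of -1.89, beside 15.6% of all genes depleted. The collagens summed to 57.7, 66.7 and 52.6 CPM in spleen, 363, 356 and 295 in brain, 1401, 1424 and 1343 in kidney, 1938, 2246 and 1734 in liver and 1488, 2033 and 1219 in muscle. Col6a1, of the collagen that surrounds cells, had 0.125, 0.198 and 0.0634 CPM in spleen and 13.2 to 93.7 CPM (median 24.7) elsewhere. Rgs5, a marker of pericytes around small vessels (chr1:169655501-169695813, + strand), had 0.0772, 0.00791 and 0.0211 CPM in spleen against 21.2 to 418 CPM (median 53.4), a smallest difference of -9.61 (SE 0.45, against kidney, adjusted p 1.03e-11). The following genes were chosen after their values were seen. The fibrillar collagen Col1a1 had 0.753, 0.498 and 0.458 CPM, the matrix protein Sparc 2.97, 2.69 and 1.74 CPM, the proteoglycan Dcn 0.627, 0.269 and 0.310 CPM, the fibroblast receptor Pdgfra 0.0965, 0.0712 and 0.0282 CPM and the pericyte receptor Pdgfrb 0.724, 0.435 and 0.507 CPM, all depleted. The endothelial genes Cdh5 (1.03, 1.78 and 1.97 CPM) and Kdr (0.907, 1.05 and 1.52 CPM) were depleted as well, whereas Pecam1, which leukocytes and platelets share with endothelium, was not called at 103, 108 and 119 CPM. The sinusoidal endothelial receptor Stab2 (18.0 ± 2.88 CPM, SD, n = 3) and Vwf, of endothelium and platelets (12.7 ± 5.65 CPM), were not called either.

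Of 18 tested genes of splenic stroma and organ identity, 5 were enriched and 3 depleted, shares not far from the 19.7% and 15.6% of all genes. Ltb, the lymphotoxin subunit by which lymphocytes signal to stroma, had 622, 406 and 434 CPM with a smallest difference of 7.30 (SE 0.27, against liver, adjusted p 7.43e-11). Tlx1, the homeobox gene required for a spleen to form, was enriched but had only 0.183, 0.119 and 0.0987 CPM, and its fold over every other tissue was at least 1.84. Its call was lost with DESeq2, with all 30 libraries in the fit, and without spleen library 1, liver library 1 or liver library 3. Cxcl13, the chemokine of follicular stroma, was at 1.20, 0.751 and 0.367 CPM and was lower than in liver (5.24, 9.09 and 4.58 CPM). Ltbr, the lymphotoxin receptor of stromal cells, had 10.6, 5.59 and 6.77 CPM and was not called.

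**Figure D4:**
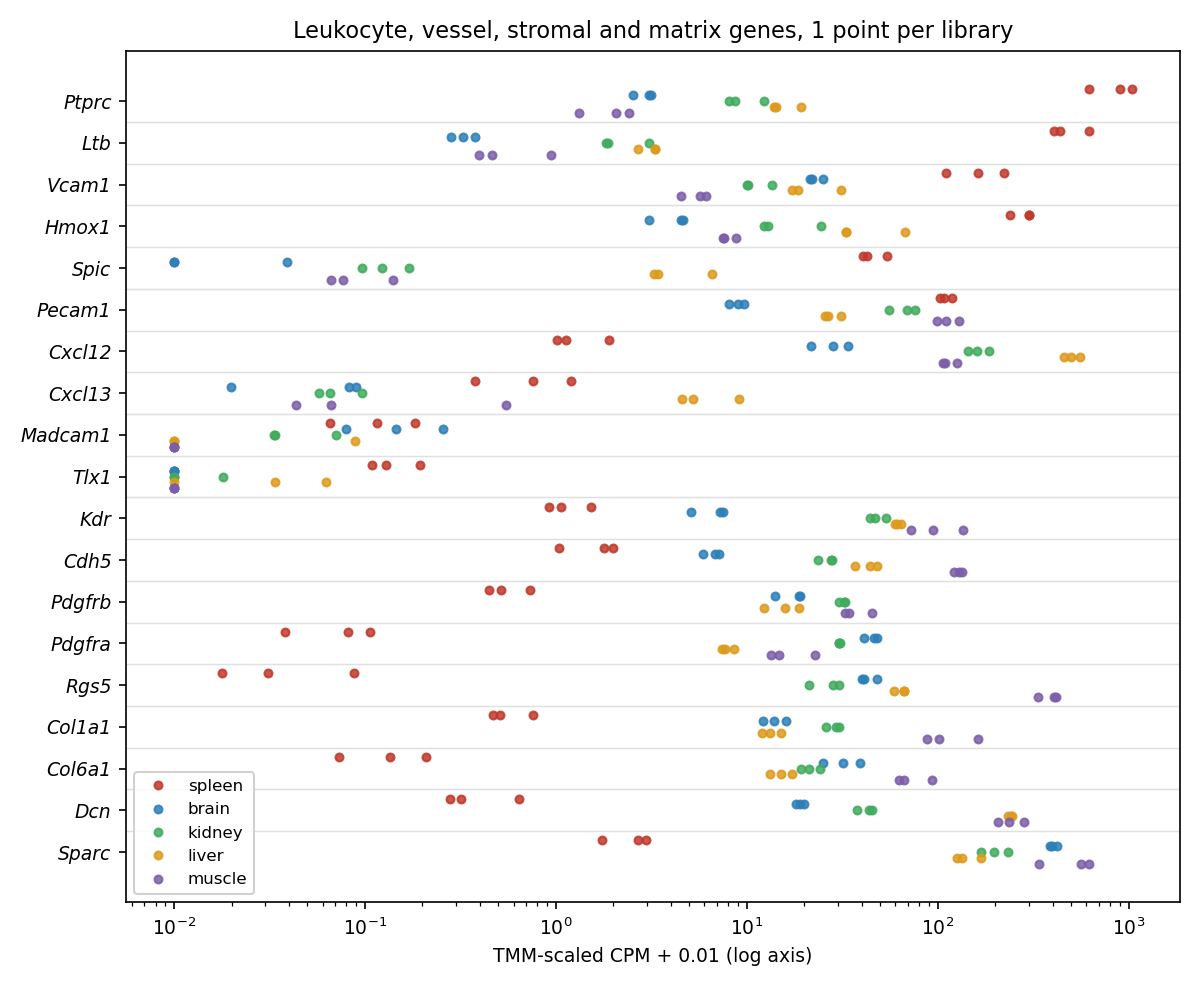
TMM-scaled CPM (with 0.01 added, log axis) of 19 genes in the 15 wild-type libraries, 1 point per library, coloured by tissue. Leukocyte genes at the top and Vcam1, Hmox1 and Spic are highest in spleen, whereas the vessel, pericyte, fibroblast and matrix genes from Kdr downward are lowest in spleen.

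The genes furthest below every other tissue had few reads in spleen. They were chosen among depleted genes with a mean of at least 5 CPM in each other tissue. Their broad expression outside spleen therefore follows from the choice. Plekhb1, which encodes a pleckstrin homology protein (chr7:100642892-100662414, - strand), had 0, 0.00791 and 0.0141 CPM in spleen and 17.2 to 329 CPM (median 78.8) elsewhere, so it was at least 769-fold lower than in each tissue. Ptprg, a receptor phosphatase, had 0.0483, 0.0475 and 0.0564 CPM in spleen, and its smallest difference was -9.09 (SE 0.26, against muscle, adjusted p 3.45e-13). The lipoprotein receptor Vldlr (0.0290, 0.0712 and 0.0211 CPM), the matrix peroxidase Pxdn (0.0483, 0.0316 and 0.0282 CPM), the actin nucleator Cobl (0.116, 0.0554 and 0.0493 CPM) and the adhesion scaffold Fermt2 (0.251, 0.356 and 0.247 CPM) were others of the 25. Prkaa2, the alpha 2 catalytic subunit of the energy sensor AMPK, had 0.0483, 0.0949 and 0.0634 CPM in spleen and at least 21.9 CPM in every other library. Nfib, a transcription factor of epithelia and brain, had 0.183, 0.221 and 0.183 CPM and a smallest difference of -8.02 (SE 0.15, against kidney, adjusted p 1.51e-13). Peg3, an imprinted zinc finger gene, had 0.00965, 0.0712 and 0.0352 CPM and 8.61 to 255 CPM (median 35.8) elsewhere. In all of these the 3 spleen libraries lay below every other library.

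Many mitochondrial energy genes were lower in spleen than in any other tissue. Of 37 complex I subunit genes 29 were depleted, with a median smallest difference of -0.90, and all 37 were below kidney, liver and muscle and 29 below brain in the single contrasts, beside 39.2%, 35.2%, 37.2% and 42.8% of all genes. Complex III (8 of 9), cytochrome c oxidase (8 of 15), ATP synthase (12 of 17) and the protein genes of the mitochondrial genome (7 of 13) also held depleted genes. Over all genes 15.6% were depleted. The complex I genes summed to 1937, 1349.5 and 1266 CPM in spleen and 2519 to 2730.1 CPM in brain, the nearest tissue. Leaving out spleen library 1, 2 or 3 gave 35, 25 and 26 depleted genes. Of 22 citric acid cycle genes 17 were depleted (11 with total-count scaling). Cs, citrate synthase, had 106, 117 and 108 CPM in spleen and 182 to 1244 CPM (median 232) elsewhere, and its call was lost with total-count scaling (smallest difference 0.05).

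Genes that break down branched-chain amino acids were depleted in 14 of 16 cases, beside 15.6% of all genes. Ivd, isovaleryl-CoA dehydrogenase, had 41.7, 42.4 and 50.8 CPM in spleen, 65.9, 67.5 and 62.4 CPM in brain and 390.1, 346 and 376 CPM in liver. Among 17 fatty acid oxidation genes 1, Echs1, was depleted, and 10 of the 17 were above brain while all 17 were below kidney and liver. Cpt1a, the entry enzyme of that pathway in most tissues, had 62.1, 92.2 and 67.2 CPM in spleen, 25.7 ± 1.48 CPM in brain and 516 ± 156 CPM in liver (SD, n = 3). Among regulators of mitochondrial genes, Ppargc1a (0.656, 0.744 and 1.39 CPM), Esrrg (0.0579, 0.103 and 0.155 CPM) and Ppara (0.0386, 0.0396 and 0.0282 CPM) were depleted and Nrf1 was enriched (57.7, 48.8 and 40.8 CPM against 11.2 to 18.5 CPM (median 14.4) elsewhere). Glutathione S-transferases were depleted in 11 of 22 genes, such as Gstm1 (11.5, 5.62 and 6.88 CPM in spleen and 2479 ± 656 CPM in liver). Among clock output genes 4 of 10 were depleted (2 with total-count scaling), including the nuclear receptor Nr1d1 (2.41, 2.59 and 2.05 CPM) and the PAR bZIP factor Hlf (0.415, 0.340 and 0.416 CPM). The hour of collection for these tissues is not given in the sources used here.

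Families of cell-to-cell signalling and excitability were depleted in larger shares than the 15.6% of all genes. Frizzled receptors, which bind Wnt, were depleted in 7 of 10 genes, Ephs and ephrins in 11 of 22, semaphorins in 9 of 20 and Sox factors in 8 of 19. Fzd4, a Frizzled receptor of vessels, had 0.511, 0.396 and 0.479 CPM in spleen and 8.35 to 139.6 CPM (median 57.4) elsewhere. Sema4d, a semaphorin of lymphocytes, was enriched instead, at 128, 142 and 188 CPM. Potassium channel genes were depleted in 30 of 93 (16 with total-count scaling and 18 without liver library 3). Kcnn4, the calcium-activated channel of lymphocytes and red cells, was 1 of 2 enriched channels, at 148, 113 and 63.97 CPM with a smallest difference of 6.99 (SE 0.33, against kidney, adjusted p 1.34e-09). The cadherin and claudin families also held 1 enriched gene each, beside 6 of 23 and 7 of 19 depleted. Cdh17, a cadherin found on B cells, had 3.97, 4.10 and 8.45 CPM and Cldn13, a claudin, 147, 99.2 and 23.6 CPM, at least 1236-fold above every other tissue. Solute carriers numbered 29 enriched and 63 depleted of 351 (40 and 34 with total-count scaling), beside 19.7% and 15.6% of all genes. Their depleted share was thus close to that of all genes. The mitochondrial iron importer of red cell precursors, Slc25a37, was enriched at 795, 932 and 286 CPM, and the bicarbonate transporter Slc4a4 was depleted at 0.0772, 0.103 and 0.113 CPM.

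Ctcf itself was enriched in WT spleen. It had 117, 151 and 137 CPM in spleen and 38.7 to 58.8 CPM (median 48.01) in the other WT libraries, with a smallest difference of 1.30 (SE 0.11, against muscle, adjusted p 6.61e-08). Its exons overlap those of Agrp and Gm5914, and since reads were counted without strand, overlapping genes such as these, Psmb9 with Tap1 and Nr1d1 with Thra are less certain. As a check of the genotype labels, scaled by total counts, all WT libraries were above all heterozygous libraries in brain, kidney, liver and muscle. In spleen the WT libraries ranged from 155.1 to 222.3 CPM and the heterozygous ones from 93.5 to 164.9 CPM, which overlap.

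Short promoter motifs were counted in the gene lists. RefSeq windows (GRCm38.p6) of 250 bases before the start site were matched by symbol to 14865 of the tested genes, with 18757 windows. Motifs were searched on both strands, and the share of genes with a match in any of their windows was counted. The GATA motif AGATAA was found in 45.0% of the 20 erythroid genes with a window and in 55.6% of the 9 mast cell, basophil and eosinophil genes, against 8.46% of all 14865, and in 0 of 16 B cell surface genes. The ETS motif ACTTCCT, of the type bound by PU.1, was found in 8 of 16 neutrophil, 7 of 16 T cell and 6 of 16 B cell surface genes, against 8.86% of all. It was in 2 of 16 NK and cytotoxic genes and in none of 11 B cell transcription factors or 12 dendritic cell genes. The CCAAT box, CCAAT, was found in all 8 MHC class II genes with a window and in 85.2% of 27 cell division genes, against 5798 of all 14865 genes. It was also in 7 of 9 clock output genes and 8 of 13 genes of branched-chain amino acid breakdown, lists with depleted members, and in 2 of 12 dendritic cell genes. No motif contains another, and a match describes the sequence and not binding. Promoters of 6 members of these lists are shown to let matches be read in place, each 5′ to 3′ toward the start site. The whole window of 250 bases is given for Hbb-bs and the 150 bases nearest the start for the others. Start sites are those of RefSeq. The windows of Hbb-bs, Cd79a and H2-Aa overlap the gene spans given above, which are those used for counting. Capitals mark 1 motif in each, the GATA motif in Hbb-bs and Alas2, the ETS motif in Elane and Cd79a and the CCAAT box in H2-Aa and Ccnb1. Hbb-bs also holds a CCAAT box, left in lower case, and that of Elane lies outside the bases shown. They are Hbb-bs (chr7:103827929-103828178, - strand), Alas2, the first enzyme of haem synthesis in red cells (chrX:150547267-150547416, + strand), the neutrophil elastase gene Elane (chr10:79886162-79886311, + strand), Cd79a (chr7:24897347-24897496, + strand), H2-Aa (chr17:34287824-34287973, - strand) and Ccnb1, which encodes the mitotic cyclin B1 (chr13:100786487-100786636, - strand).
Hbb-bs: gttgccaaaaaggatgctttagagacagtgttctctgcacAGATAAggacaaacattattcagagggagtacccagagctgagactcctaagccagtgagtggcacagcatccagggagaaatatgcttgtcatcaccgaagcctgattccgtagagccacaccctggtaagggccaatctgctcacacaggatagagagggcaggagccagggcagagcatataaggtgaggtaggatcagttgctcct
Alas2: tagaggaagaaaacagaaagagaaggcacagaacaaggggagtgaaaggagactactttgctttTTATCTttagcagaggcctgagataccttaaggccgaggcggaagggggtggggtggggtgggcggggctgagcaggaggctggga
Elane: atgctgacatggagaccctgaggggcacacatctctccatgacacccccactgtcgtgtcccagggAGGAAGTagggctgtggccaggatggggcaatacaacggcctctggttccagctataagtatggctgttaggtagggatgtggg
Cd79a: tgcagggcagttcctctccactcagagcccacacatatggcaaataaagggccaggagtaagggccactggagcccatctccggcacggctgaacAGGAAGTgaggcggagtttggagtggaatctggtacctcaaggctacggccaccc
H2-Aa: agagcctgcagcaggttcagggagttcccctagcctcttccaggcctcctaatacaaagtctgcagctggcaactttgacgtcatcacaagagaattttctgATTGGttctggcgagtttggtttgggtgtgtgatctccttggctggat
Ccnb1: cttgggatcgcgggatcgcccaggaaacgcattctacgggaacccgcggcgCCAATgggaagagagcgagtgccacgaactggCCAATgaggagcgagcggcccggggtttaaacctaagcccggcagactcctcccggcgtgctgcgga
The Hbb-bs match begins 210 bases and the Alas2 match, on the opposite strand, 86 bases before the start. The ETS match, on the opposite strand in both, begins 84 bases before the start in Elane and 55 bases in Cd79a. H2-Aa holds a CCAAT box on the opposite strand 48 bases before the start, and Ccnb1 holds 2, at 99 and 67 bases. Windows of genes at least 4-fold enriched by the fit had a lower observed-to-expected ratio of CpG dinucleotides than those of all genes. The median was 0.31 over 1297 windows, against 0.52 over 1756 windows of genes at least 4-fold depleted and 0.62 over all. Without the 4-fold minimum, enriched genes had a median of 0.63 over 3390 windows.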

How the data were processed

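RNA was sequenced from 5 tissues of WT and Ctcf heterozygous mice. The values are raw fragment counts per gene, which featureCounts (version 1.5.0-p3) assigned to Ensembl GRCm38 genes, per the file headers. Fragments were counted in pairs over exons without strand, and fragments of several places or genes were left out, per the file headers. STAR, FastQC and DESeq2 are named in the submitters' processing notes without versions. Gene length is another deposited column, in bases of exon, per the file headers, and was used only for levels per kilobase.

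Each table held 48709 genes, of which 22933 passed edgeR's filterByExpr over the 15 WT libraries. The main test was edgeR 4.0.16 (R 4.3.3), with TMM scaling and the quasi-likelihood F-test on 1 term per tissue, in 4 contrasts of spleen with another tissue, with Benjamini-Hochberg adjustment over all genes in each contrast. Calls needed an adjusted p under 0.05 in the same direction in all 4. Every adjusted p printed is the largest of the 4, except where 1 tissue is named. Genes named without a list are the 25 enriched and 25 depleted genes with the largest differences and a mean of at least 5 CPM, up to 8 of each list or family, and those said to be chosen after their values were seen. The minimum of 5 CPM applied to spleen for enriched genes and to each other tissue for depleted genes. The members and lists were chosen with earlier results of these data known. Library totals of 49819907 to 103746605 counts limit precision for genes near 3 counts. Replicates differed beyond sampling noise, so none were merged. Alternatives were DESeq2 1.42.0, limma 3.58.1 (voom), other scalings and filters, all 30 libraries, the heterozygous libraries alone, a replicate block and each library left out.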

Additional observations from a re-analysis of the deposited data

How the results depend on the processing

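Counts of enriched and depleted genes were within 1.5 times of 4524 and 3583 under DESeq2 (4362 and 3765), limma-voom (4548 and 3934), a filter of 1 count in any library (4768 and 3358), and all 30 libraries (5016 and 3500). Total-count scaling gave 5958 enriched and 2228 depleted genes, so that 72.8% of called genes were enriched in place of 55.8%. Among genes named in the text, total-count scaling also called Bcl6, Blvrb, Fech, Tfrc, Lcn2, Pecam1, Slc40a1 and Gcg enriched. A single contrast with the mean of the other tissues called 8723 spleen-enriched genes and 8642 spleen-depleted genes, and a 4-fold minimum on fitted values left 2148 and 1957. That minimum left 11237 genes for spleen against brain, 9820 for spleen against kidney, 9740 for spleen against liver and 10572 for spleen against muscle. Leaving out each library in turn gave 4346 to 4720 enriched and 3320 to 3617 depleted genes. With the replicate number as a block the counts were 4491 and 3560. Libraries of the same number in spleen and another tissue correlated between -0.144 and 0.232 in their deviations from the tissue means, above 0.1 in 4 of 12 pairs, so the numbers were not taken as pairing. Depth limits genes near 3 counts, and 714 depleted genes were at or under that floor in spleen.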

Other observations

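Small nucleolar RNA (snoRNA) genes, which guide chemical modification of ribosomal and spliceosomal RNA, were enriched in 67 of 113 tested genes, and none was depleted. Over all genes 19.7% were enriched. Their counts summed to 73.9, 66.1 and 84.98 CPM in spleen libraries 1, 2 and 3, and to 14.5 to 29.7 CPM in the 12 others, which did not overlap. The count of enriched snoRNA genes was 61 with DESeq2, 80 with total-count scaling, 62 in the heterozygous libraries and 58 without spleen library 3. Most are short genes inside introns of other genes, and the part of unspliced host transcripts in these counts was not tested.

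Enriched genes were unevenly spread over chromosomes. The highest shares were 29.65% on chromosome 6, 26.59% on chromosome 12, 25.52% on chromosome 14 and 25.29% on chromosome 17. Chromosomes 6, 12 and 14 hold antigen receptor loci, and without antigen receptor genes the shares on them were 21.5%, 14.8% and 18.5%. The share on chromosome 17, which holds the MHC, was 25.3% without antigen receptor genes.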
